A study of Mus musculus with 20 samples.

Results

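The small intestine was compared with the liver, spleen, kidney, and heart of mice by RNA-seq. Its members are the 4 libraries, of 20 in all, whose column names the intestine: 2 from wild-type (WT) mice and 2 from Nsun6-knockout (KO) mice. The other 16 libraries hold 4 from each remaining organ, again 2 WT and 2 KO. The KO strain was made by injecting Cas9 protein and guide RNAs into fertilized C57BL/6J eggs, which removed exons 3 and 4 of Nsun6, and the KO mice were homozygous offspring of heterozygous parents. Tissues came from female mice of 8 weeks. The labels call the WT mice no more than WT, and neither they nor the methods say which stretch of the small intestine was dissected or whether the organs of one number came from one animal. The p-values below therefore measure only the spread between these libraries.

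The small intestine digests food and takes up nutrients through a single layer of epithelium that is folded into villi. Absorptive enterocytes carry a brush border of microvilli with digestive enzymes and transporters, goblet cells secrete mucus, Paneth cells at the base of the crypts secrete antimicrobial peptides, and enteroendocrine and tuft cells sense the contents of the lumen. Stem cells in the crypts renew all of them, and the duodenum, jejunum, and ileum divide the absorptive work along the length of the organ.

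The 4 intestine libraries held 32121286 (WT replicate 1), 28391003 (WT replicate 2), 27240407 (KO replicate 1), and 26414043 (KO replicate 2) counts. All 20 libraries ranged from 15897446 to 44508197. Levels of one gene across libraries are given as CPM (counts scaled to a common library size) after TMM normalization, and levels of different genes are compared as TPM, which also divides by gene length. Nsun6, the targeted gene, was at 9.82 and 6.19 CPM in the WT and 9.68 and 5.24 CPM in the KO libraries of the intestine, and at 3.32 to 7.23 CPM in the other organs. The genotypes overlapped, and the log2 difference of KO from WT in the intestine was −0.10 (SE 0.42, edgeR's quasi-likelihood test, adjusted p = 1). Counts over all exons of the gene do not isolate the deleted exons, so this level does not check the genotype, and the libraries are called KO as labelled.

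The label of the organ held for its markers. Vil1, which encodes the actin bundler villin of the microvilli, was at 1376 and 1641 CPM in WT and 1826 and 1693 CPM in KO intestine. Its highest level elsewhere was in the kidney, at 61.5 to 96.0 CPM, so the lowest intestine library was 14.3-fold above the highest other library. Fabp2, the intestinal fatty acid binding protein, was at 5417, 10930.4, 8351, and 10635 CPM in WT replicates 1 and 2 and KO replicates 1 and 2. The liver libraries, the highest of the others for Fabp2, lay at 151 to 274 CPM. Cdx2, the homeobox factor of the intestinal epithelium, was at 123, 68.9, 165, and 71.0 CPM in the same order. It had 3 counts in spleen KO replicate 1 and 0 in the other 15 libraries. No other library overlapped the intestine for any of these genes.

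Several libraries stood apart from others of their organ. Intestine WT replicate 2 held transcripts of the stomach: Tff2, a peptide of gastric mucous cells, was at 2620.0 CPM there against 0.174, 0.217, and 2.68 CPM in WT replicate 1, KO replicate 1, and KO replicate 2. Gkn3 was at 1829 CPM and the gastric gland mucin Muc6 at 504 CPM in that library, against at most 3.13 and 1.40 CPM in the other intestine libraries. The 11 genes of a stomach list summed to 14724 TPM there, and to 9.10, 7.36, and 32.6 TPM in the other intestine libraries, with Tff2 the most abundant in WT replicate 2. In that library 1 of the 11 was at 0 counts, and whether the stomach was the source of these transcripts was not tested. Intestine KO replicate 1 held transcripts of heart muscle, such as the ventricular myosin light chain Myl2 at 169.9 CPM against 0.988, 2.22, and 1.69 CPM. All 15 genes of a heart list were detected in that library, with Myl2 the most abundant, and summed to 660.0 TPM against 10.5, 13.5, and 21.2 TPM in WT replicates 1 and 2 and KO replicate 2. Each of the 14 heart genes with at least 100 TPM in heart lay in KO replicate 1 at 0.414% to 0.874% of its mean level in heart, with a median of 0.684%.

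Intestine WT replicate 1 held the most B cell and follicle transcripts: a list of 15 lymphoid genes summed to 518.5 TPM there and to 15.9, 2.95, and 85.4 TPM in WT replicate 2, KO replicate 1, and KO replicate 2. Cd79b, a subunit of the B cell receptor, was its most abundant member in all 4, and 1 of the 15 was at 0 counts in WT replicate 1. The source of these transcripts was not tested. Spleen WT replicate 2 held liver transcripts, with a sum of 7686 TPM over 15 liver genes against 31.3 to 384 TPM in the other spleen libraries. The median of these genes was 2.90% of their level in liver. Spleen KO replicate 1 held kidney transcripts at a lower level: 15 kidney genes summed to 195.7 TPM there, with Kap the most abundant and none at 0 counts, and to 2.67 to 4.32 TPM in the other spleen libraries. Leaving out this library alone gave 1605 genes above every other library and 568 shared with spleen, against 1592 and 566 with it. The main counts were also made without the 3 libraries that hold transcripts of stomach, heart, or liver. In bulk tissue, fewer cells of a type cannot be told apart from less RNA per cell, for any gene below.

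The first question was how the transcriptome of the intestine differed from each organ. Of 23159 genes tested, 5694 (24.6%) were higher and 3687 (15.9%) were lower in the intestine than in the mean of the 4 organs, by edgeR's quasi-likelihood test. A call required more than a 2-fold change and a p below 0.1 after Benjamini-Hochberg adjustment. The mean of the organs, here and below, averages their levels on the log2 scale. A gene called higher than this mean can therefore lie far below a single organ. Against single organs, 6257 (27%) were higher and 4459 (19.3%) lower than in liver, 5582 (24.1%) and 5876 (25.4%) than in spleen, 5362 (23.2%) and 5233 (22.6%) than in kidney, and 6407 (27.7%) and 5992 (25.9%) than in heart. These 4 comparisons share the intestine libraries. Scaling by library totals in place of TMM moved the split against liver to 8527 higher and 2941 lower, with a median log2 difference over all genes of 0.75 in place of 0.19. It moved the split against spleen to 4011 and 8717, with a median of −0.71 in place of −0.10, and against kidney to 4580 and 5976. Without the 3 libraries with transcripts of stomach, heart, or liver, 4771 genes were higher and 3401 lower than the mean of the organs. Against single organs the numbers were then 5396 and 4493 (liver), 4528 and 4826 (spleen), 4556 and 5244 (kidney), and 5767 and 5873 (heart). Over the 23159 genes, Pearson's r between log2(CPM + 1) values of pairs of intestine libraries ran from 0.934 to 0.984. The median r with other organs was 0.770 for kidney, 0.749 for spleen, 0.733 for liver, and 0.714 for heart, as a description across genes, which are not independent.

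Library order gave a stricter view. A gene was counted above every other library if its lowest intestine library exceeded the highest of the 16 others and reached 1 CPM. This held for 1592 genes, or 6.87% of those tested. The same rule gave 1519 genes (6.56%) for liver, 2313 (9.99%) for spleen, 1022 (4.41%) for kidney, and 2171 (9.37%) for heart. Of the 1592 genes, 1446 (90.8%) were protein coding, against 72.0% of the genes tested. The genes tested include genes under 1 CPM, so these shares are not matched for level. The separation was wide for a minority: the lowest intestine library was at least 4-fold above the highest other for 436 genes and at least 100-fold for 87, and under 2-fold for 867. In 34 genes no other library had more than 3 counts. The runner-up library was most often of the kidney (510 genes, 32%), followed by spleen (430, 27%), liver (380, 23.9%), and heart (272, 17.1%). Because the order chose these genes, the 1502 that also passed the test against the mean of the organs, and the 1192 that passed against each of the 4, are a description only. At the edge of the rule, Rock2, a kinase of the cytoskeleton, lay just inside at 255.3 CPM against 255.1 CPM in heart KO replicate 2, and Trp53i13 just outside at 10.25 CPM in both the lowest intestine library and heart WT replicate 1. Without the 3 libraries with transcripts of stomach, heart, or liver, 1776 genes met the rule, a number that leaving out libraries can only raise.

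**Figure D1:**
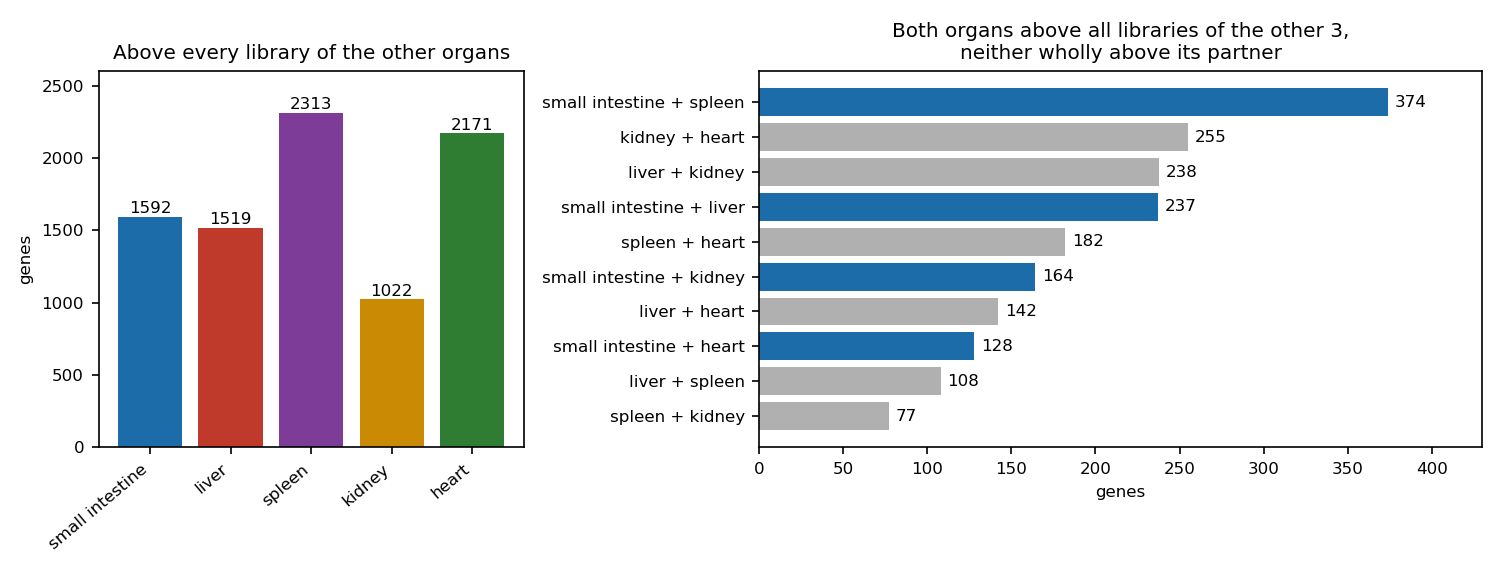
Left, number of genes (y axis) above every library of the other organs, one bar per organ; right, number of genes (x axis) for which both organs of a pair exceed all libraries of the other 3 without either lying wholly above its partner. The small intestine has 1592 genes above every other library, of which 867 have a margin under 2-fold. Its pair with spleen (374 genes) is the largest of the 10 pairs.

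Among genes above every other library and called higher, the 10 with the highest TPM in their lowest intestine library were Fabp2, Tff3, Zg16, Lgals4, Krt20, Dstn, Plac8, Krt8, Txn1, and Smim24. Fabp2 led, with 15671, 24714, 25030.1, and 25729 TPM in WT replicates 1 and 2 and KO replicates 1 and 2. Next came products of goblet cells. Tff3, the trefoil peptide that is secreted with mucus, reached 12503, 9176, 7551, and 6723 TPM, and Zg16, a lectin of the mucus layer, 12103, 9239.8, 6023, and 7361 TPM. The lowest intestine library was 1156-fold above the highest other library for Tff3 and 579-fold for Zg16 in CPM. Lgals4 and Krt20, a galectin of enterocytes and the keratin of mature villus cells, followed. Krt20 was even across the 4 libraries, at 2430.2, 2446, 2191, and 2259 CPM, and at most 2.59 CPM elsewhere.

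Abundance alone did not make a gene particular to the organ. Dstn, an actin-severing protein, was at 2500.5, 2171, 2487, and 1923 CPM in the intestine but also at 571 CPM in a kidney library. Txn1, the redox protein thioredoxin, was at 851, 1644, 748, and 1678 CPM and reached 585 CPM in kidney, so its margin was only 1.28-fold. Plac8 (1602, 6657, 1257, and 3951 CPM) and Smim24 (769, 2777, 879.9, and 4428 CPM) were several times higher in both replicate 2 libraries than in both replicate 1 libraries.

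The 10 genes with the largest margin were Trim31, Sis, Btnl5-ps, Clca1, 2010106E10Rik, H2-T3, Muc3, Tff3, Tubal3, and Tm4sf20. Sis, the brush border enzyme that splits sucrose and isomaltose, was at 2182, 5041, 4827, and 5221 CPM and no higher than 0.591 CPM elsewhere, a margin of 3692-fold. Clca1, a protein of goblet cell mucus, was at 4143, 3110.0, 3941, and 2611 CPM with a margin of 1653-fold. Muc3, a mucin of the enterocyte surface, was at 1868, 1494, 2147, and 3048 CPM with a margin of 1182-fold. WT replicate 1 was the low library for Sis and KO replicate 2 for Clca1, yet every intestine library exceeded every other library by 3 orders of magnitude. Trim31, a ubiquitin ligase, was at 173, 249, 171, and 233 CPM, and no other library had more than 2 counts of it. H2-T3, which encodes a nonclassical MHC class I molecule of the epithelium, was at 193, 414, 236, and 414 CPM, with at most 7 counts in any other library. H2-T3 and Btnl5-ps belong to families of near-identical copies, so reads may have been split between them and their values are uncertain.

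**Figure D2:**
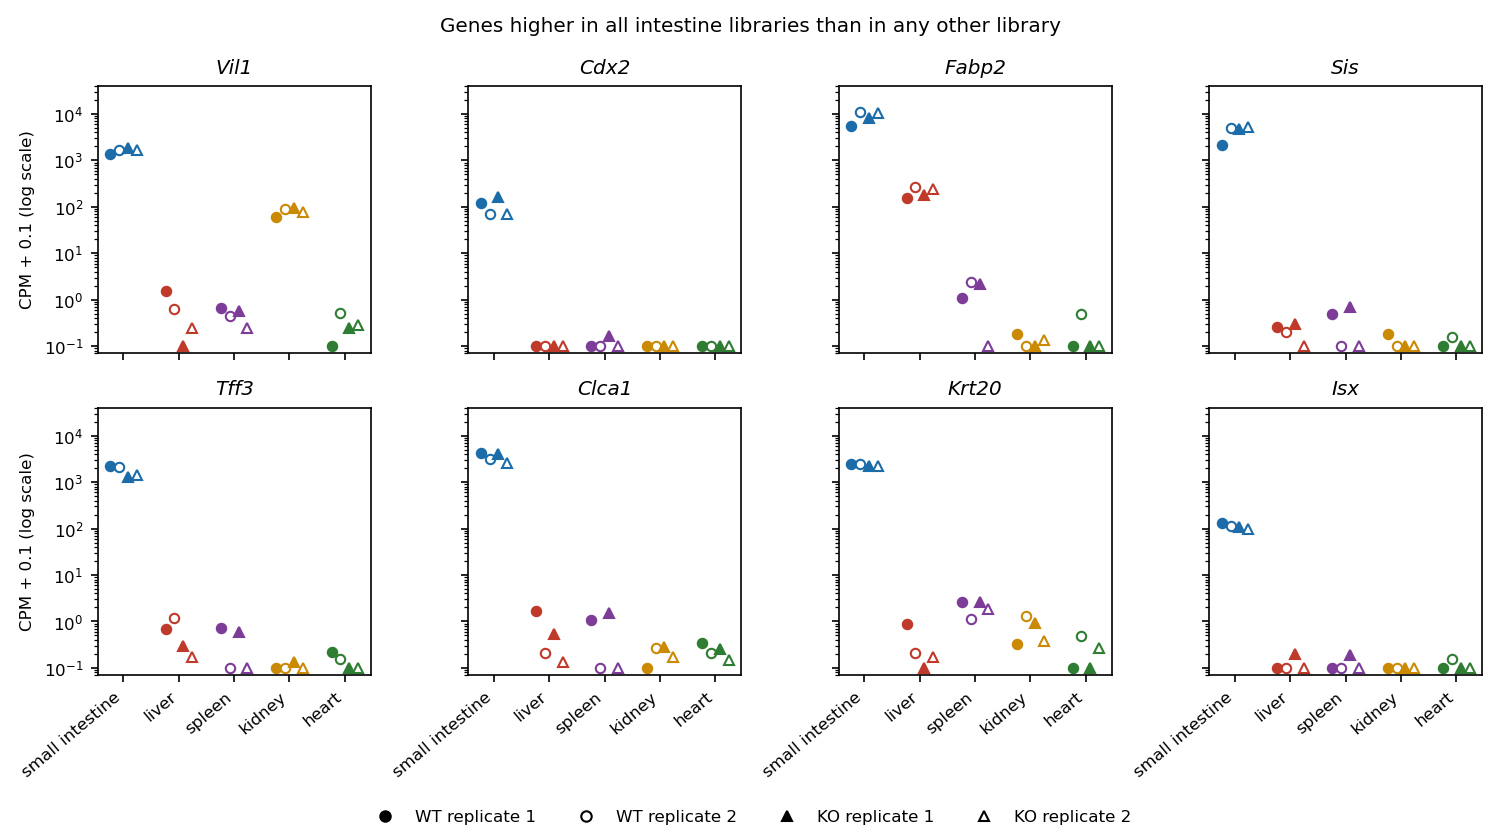
CPM + 0.1 on a log axis (y) in each of the 20 libraries by organ (x), for 8 genes above every other library; circles are WT, triangles KO, filled symbols replicate 1, and open symbols replicate 2. For Sis the intestine libraries lie at 2182 to 5221 CPM and every other library at or below 0.591 CPM.

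To show sequence next to these genes, the promoters of the markers and of the 20 gene places above were searched for 3 motifs on both strands: TTTATG, a core bound by Cdx factors, AGATAA, a core bound by GATA factors, and CAAAGTCCA, a direct repeat bound by HNF4. None of the letters of one motif contains another. Of 21 genes, 16 had a RefSeq promoter window on GRCm38.p6, and 5 held a motif in the 250 bases before the start. These 5 stretches follow, 5′ to 3′ on the strand of the gene, with the motif in capitals. Sis holds the Cdx core 43 bases before its start (chr3:72967864-72968113, minus strand), and H2-T3 (chr17:36190152-36190401, minus strand) and Trim31 (chr17:36897880-36898129, plus strand) hold the HNF4 repeat 16 and 130 bases before theirs, Trim31 in reverse. Krt8 (chr15:102004343-102004592, minus strand) and Krt20 (chr11:99438154-99438403, minus strand) hold the GATA core 239 and 223 bases before theirs, Krt20 in reverse.
Sis: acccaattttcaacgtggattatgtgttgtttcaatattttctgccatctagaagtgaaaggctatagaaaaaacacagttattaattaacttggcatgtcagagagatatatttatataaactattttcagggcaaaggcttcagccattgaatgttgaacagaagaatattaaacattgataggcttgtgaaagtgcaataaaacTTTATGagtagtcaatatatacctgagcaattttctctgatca
H2-T3: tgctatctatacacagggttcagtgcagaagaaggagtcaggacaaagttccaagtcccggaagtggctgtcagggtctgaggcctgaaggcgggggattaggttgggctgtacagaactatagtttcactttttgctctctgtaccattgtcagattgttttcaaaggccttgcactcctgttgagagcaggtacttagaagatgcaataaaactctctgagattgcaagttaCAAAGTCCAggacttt
Trim31: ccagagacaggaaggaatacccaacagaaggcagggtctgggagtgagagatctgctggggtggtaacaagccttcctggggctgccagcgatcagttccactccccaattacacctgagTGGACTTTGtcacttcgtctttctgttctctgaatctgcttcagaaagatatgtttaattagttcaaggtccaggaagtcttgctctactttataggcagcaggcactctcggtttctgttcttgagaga
Krt8: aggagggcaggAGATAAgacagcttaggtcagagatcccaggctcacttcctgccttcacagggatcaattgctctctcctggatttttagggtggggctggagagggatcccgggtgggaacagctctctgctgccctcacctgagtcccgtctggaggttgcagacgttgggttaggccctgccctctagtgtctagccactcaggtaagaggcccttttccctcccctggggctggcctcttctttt
Krt20: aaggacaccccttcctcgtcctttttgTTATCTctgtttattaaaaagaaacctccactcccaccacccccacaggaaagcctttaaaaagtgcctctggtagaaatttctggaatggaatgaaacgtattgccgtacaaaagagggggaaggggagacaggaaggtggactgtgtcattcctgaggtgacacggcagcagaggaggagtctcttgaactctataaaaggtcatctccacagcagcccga
A match is a description of letters and not a bound site, and a window without a match says nothing about the factor.

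Across all genes with a window of 300 bases (250 before and 50 after the start), the Cdx core was in 9.45% of 14696 genes tested, in 9.1% of 1154 genes above every other library, and in 15% of the 301 genes among them whose margin was at least 4-fold. It was in 11.9% of all 32851 windows. The HNF4 repeat was in 0.66% of the genes tested, in 1.3% of the genes above every other library, in 2.99% of those with the 4-fold margin, and in 0.475% of all windows. It was in 2.02% of the genes shared with liver and 3.03% of those shared with kidney, which are 5 genes each, in 0.698% (3 genes) of those shared with spleen, in 0% (0 of 155) of those shared with heart, and in 0.313% (2 genes) of those below every other library. The GATA core was in 9.42% of the genes tested, in 8.58% of the genes above every other library, in 13% of those with the 4-fold margin, and in 11.2% of all windows. In the sets shared with liver, kidney, spleen, and heart and in the genes below every other library, the Cdx core was in 4.86%, 12.1%, 8.6%, 4.52%, and 8.14%, and the GATA core in 9.31%, 9.7%, 6.74%, 6.45%, and 7.2%. These shares are given without a test.

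The levels were then followed by the roles of the cells that make up the organ, with lists of known genes. A list is described by its members called higher than the mean of the organs (24.6% of all genes tested were), by its members above every other library (6.87% of all), and by its median log2 difference, for which organs without any count of a gene were set to 3 counts per library. The same median over all genes tested was −0.06. Without the 3 libraries with transcripts of stomach, heart, or liver, the number called higher in the lists of the intestine moved by at most 3 genes. Structural genes of the brush border rose together: 20 of 20 were called higher, 18 were above every other library, and the median was 8.16. Pls1, the actin bundler plastin 1, was at 2314, 2001, 2189, and 2086 CPM, and Cdh17, a cadherin of the gut epithelium, at 1831, 2207, 2271, and 1986 CPM. The members not above every other library were Prom1, which kidney libraries matched at 158 to 269.7 CPM, and Tmigd1, which was at 2648 and 4022 CPM in replicate 1 of WT and KO but at 3.97 and 4.49 CPM in replicate 2. Of epithelial adhesion and keratin genes, 24 of 24 were called higher and 23 were above every other library, with a median of 7.66. The exception was Krt18, at 213, 144, 345, and 156 CPM in the intestine and up to 159.7 CPM in liver. Its partner Krt8 lay at 2983, 1951, 3413, and 2024 CPM and reached 167 CPM in liver.

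Of 22 digestive enzymes, 21 were called higher and 12 were above every other library, with a median of 8.42. The exception, Folh1, was at or below 0.0872 CPM in the intestine and at 168 to 384 CPM in kidney. Alpi and Mep1b were among those with the highest mean TPM. Alpi, the intestinal alkaline phosphatase, was at 188 and 506 CPM in replicate 1 and 5005 and 3721 CPM in replicate 2 of WT and KO. Mep1b, a meprin subunit, ran the other way at 2299 and 1999 against 1281 and 1017 CPM.

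Of 35 nutrient transporters, 33 were called higher, 1 lower, and 13 were above every other library, with a median of 6.23. Slc23a1, a vitamin C transporter, was the one lower (log2 difference of −2.50, SE 0.32, edgeR adjusted p = 1.40e-05), at 1.38 to 3.29 CPM in the intestine and 239.9 to 254 CPM in kidney. Aqp8 was not called. Slc5a1, the sodium-glucose cotransporter, was at 1222, 3965, 2044, and 4109 CPM. S100g, the calcium-binding protein of absorptive cells, was at 46.9 and 118 CPM in replicate 1 and 13972 and 5875 CPM in replicate 2, and thus overlapped the kidney at 1295 to 3092 CPM. Slc10a2, the bile acid transporter of the ileum, was at 2562 and 4035 CPM in replicate 1 and at 4.60 and 8.25 CPM in replicate 2.

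Of 27 genes of lipid absorption, 23 were called higher, 2 lower, and 12 were above every other library, with a median of 6.26. The fatty acid translocase Cd36 (log2 difference −2.73) and the cholesterol exporter Abca1 (log2 difference −2.07) were the members called lower, and Scarb1 and Pnlip were not called. Apoa1, the main apolipoprotein of high-density lipoprotein, was at 3978, 8843, 6729.9, and 14327 CPM in the intestine and at 5127 to 13243 CPM in liver, with a log2 difference from liver of −0.37 (SE 0.95, adjusted p = 0.810). Fabp6, the ileal bile acid binding protein, was at 6808 and 6258 CPM in replicate 1 and at 0.238 and 0.412 CPM in replicate 2. Fabp1, the liver fatty acid binding protein, ran the other way, at 10.8 and 138 CPM in replicate 1 and 5622 and 7103 CPM in replicate 2, against 6121 to 11868 CPM in liver. Of 27 genes of xenobiotic metabolism, 25 were called higher, the sulfotransferase Sult1a1 lower (log2 difference −4.29), and 8 were above every other library, with a median of 6.88. The carboxylesterase Ces2e was at 853, 1565, 1178, and 1927 CPM, 2.79-fold above the highest liver library. The cytochrome Cyp4f14 was at 642, 889, 1172, and 1066 CPM with a margin of 1.82-fold over liver. Cyp3a13 was at 470.4 and 443 CPM in replicate 1 and 3225 and 2389 CPM in replicate 2, with a margin of 1.19-fold over liver.

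The secretory cells came next. Of goblet cell genes, 20 of 20 were called higher and 15 were above every other library, with a median of 8.30. Beside Tff3 and Zg16, Spink4 was at 763, 355, 1176, and 252 CPM, at least 338-fold above all other libraries. Of 19 Paneth cell genes tested, 18 were called higher and 10 were above every other library, with a median of 8.52. Nupr1, a stress response gene, was not called. The defensins Defa24 (1498, 134, 1000.4, and 218 CPM) and Defa30 (893, 56.6, 659, and 112 CPM) were higher in both replicate 1 libraries than in both replicate 2 libraries. Defa22 was at 883 and 205 CPM in replicate 1 and at 0.754 and 0.577 CPM in replicate 2. The defensins are near-identical copies whose reads may have been split, so single values are uncertain. Summed over the Paneth list, the level was 40468 and 21693 TPM in replicate 1 and 1526 and 3179 TPM in replicate 2 of WT and KO, and at most 144.7 TPM in any other library.

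Of enteroendocrine genes, 23 of 23 tested were called higher and 13 were above every other library, with a median of 6.59. Sct, which encodes secretin, was even at 31.5, 42.1, 49.0, and 51.6 CPM, at least 30.5-fold above all other libraries. Nts, neurotensin, was at 144 and 177 CPM in replicate 1 and 3.13 and 2.64 CPM in replicate 2, whereas Gip, the incretin of the upper gut, was at 1.02 and 0.834 CPM in replicate 1 and 76.2 and 108 CPM in replicate 2. The endocrine list as a whole was steadier, with sums of 791.8, 730.5, 982.4, and 1037 TPM. Tuft cell genes separated less: 9 of 13 were called higher and 3 were above every other library, with a median of 2.26. Trpm5, a channel of taste signalling, was at 8.83, 17.5, 98.8, and 44.0 CPM, and the tuft cell gene Sh2d6 at 10.2, 19.1, 138, and 45.4 CPM, so both KO libraries lay above both WT libraries for both genes, as they did for 13.9% of all genes tested. Cd24a, the most abundant of the list, was at 218, 247, 636, and 303 CPM against 634 to 1526 CPM in spleen, with KO replicate 1 just above the lowest spleen library.

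Stem cell and crypt genes included many that other organs express. Of 19 listed, 14 were called higher, the Wnt regulator Znrf3 lower (log2 difference −1.24), and 5 were above every other library, with a median of 2.26. Olfm4, a secreted protein of crypt stem cells, was at 258, 70.3, 83.7, and 73.4 CPM and at 18.1 to 23.3 CPM in kidney. Mki67, the proliferation marker, was at 210.4, 48.8, 83.1, and 50.4 CPM in the intestine and 315 to 889 CPM in spleen.

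Of 35 transcription and patterning factors of the gut, 34 were called higher and 11 were above every other library, with a median of 5.08. The 11 were Cdx1, Cdx2, Hnf4g, Ihh, Elf3, Gata5, Klf4, Klf5, Prdm1, Isx, and Vdr. Cdx1, the relative of Cdx2, was at 100.4, 44.1, 79.7, and 35.4 CPM and had at most 4 counts elsewhere. Isx, a homeobox repressor of vitamin A uptake, was at 132, 115, 110.4, and 96.4 CPM and had at most 2 counts in any other library. Hnf4g, a nuclear receptor, was at 250.1, 286, 365, and 170.0 CPM, 17.7-fold above the highest kidney library. Klf5, a factor of crypt cells, was at 464, 336, 596, and 252 CPM with a margin of 74.9-fold, and Klf4, a factor of differentiated cells, at 205, 266, 226, and 196 CPM with a margin of 4.08-fold over heart. Elf3, an epithelial ETS factor, was at 167, 202, 147, and 210.5 CPM. Gata5 was at 74.9, 70.1, 95.0, and 71.6 CPM, the hedgehog ligand Ihh at 27.5, 53.5, 43.8, and 45.9 CPM, and the repressor Prdm1 at 34.7, 15.7, 12.8, and 17.2 CPM. Vdr, the vitamin D receptor, was at 294, 617, 406, and 538 CPM and at 118 to 188 CPM in kidney. The factors of highest mean TPM were not particular to the gut: Hnf4a was at 659, 467, 727, and 466 CPM, and overlapped liver (469.6 to 788 CPM) and kidney (399.9 to 483 CPM). Nr1h4, the bile acid receptor, was at 380.0 and 429 CPM in replicate 1 and 61.0 and 41.9 CPM in replicate 2, against 302 to 358 CPM in liver. Barx1 had no counts in the intestine and was not called.

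Of 31 genes of mucosal immunity, 28 were called higher and 12 were above every other library, with a median of 6.27. Saa2, Cxcl13, and Nod2 were not called. Pigr, the receptor that carries immunoglobulin A across the epithelium, was at 2883, 5546, 2272, and 5506 CPM, 1.99-fold above the highest liver library. Reg3b, an antimicrobial lectin, was at 31312, 2281, 6186, and 80.3 CPM, and its relative Reg3g at 14233, 743, 1264, and 29.7 CPM. Each spanned more than 2 orders of magnitude between intestine libraries and was still above every other library, where Reg3b reached 11.8 CPM in spleen and Reg3g 4.75 CPM in heart.

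Smooth muscle and enteric nerve genes had medians far below that of the brush border. Of 18 smooth muscle genes, 14 were called higher and 7 were above every other library, with a median of 2.73. Actg2, the enteric smooth muscle actin, was at 48.5 and 80.9 CPM in WT and 634 and 232 CPM in KO, and at most 8.41 CPM in spleen. Myl9 (84.8, 123, 452, and 289.9 CPM) overlapped kidney, and Acta2 (55.3, 118, 284, and 406 CPM) overlapped spleen and heart. For all 3 genes both KO libraries were above both WT libraries (13.9% of all genes tested were), and the list summed to 778.1 and 909.3 TPM in WT and 5147 and 2336 TPM in KO. Whether more muscle was dissected with these samples was not tested. Of 21 genes of enteric nerves and pacemaker cells, 16 were called higher and 2 were above every other library, with a median of 1.71. Prph, a neuronal filament, was at 2.09, 1.71, 7.58, and 5.07 CPM, and Ano1, a chloride channel of pacemaker cells, at 7.67, 9.52, 20.5, and 14.2 CPM.

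**Figure D3:**
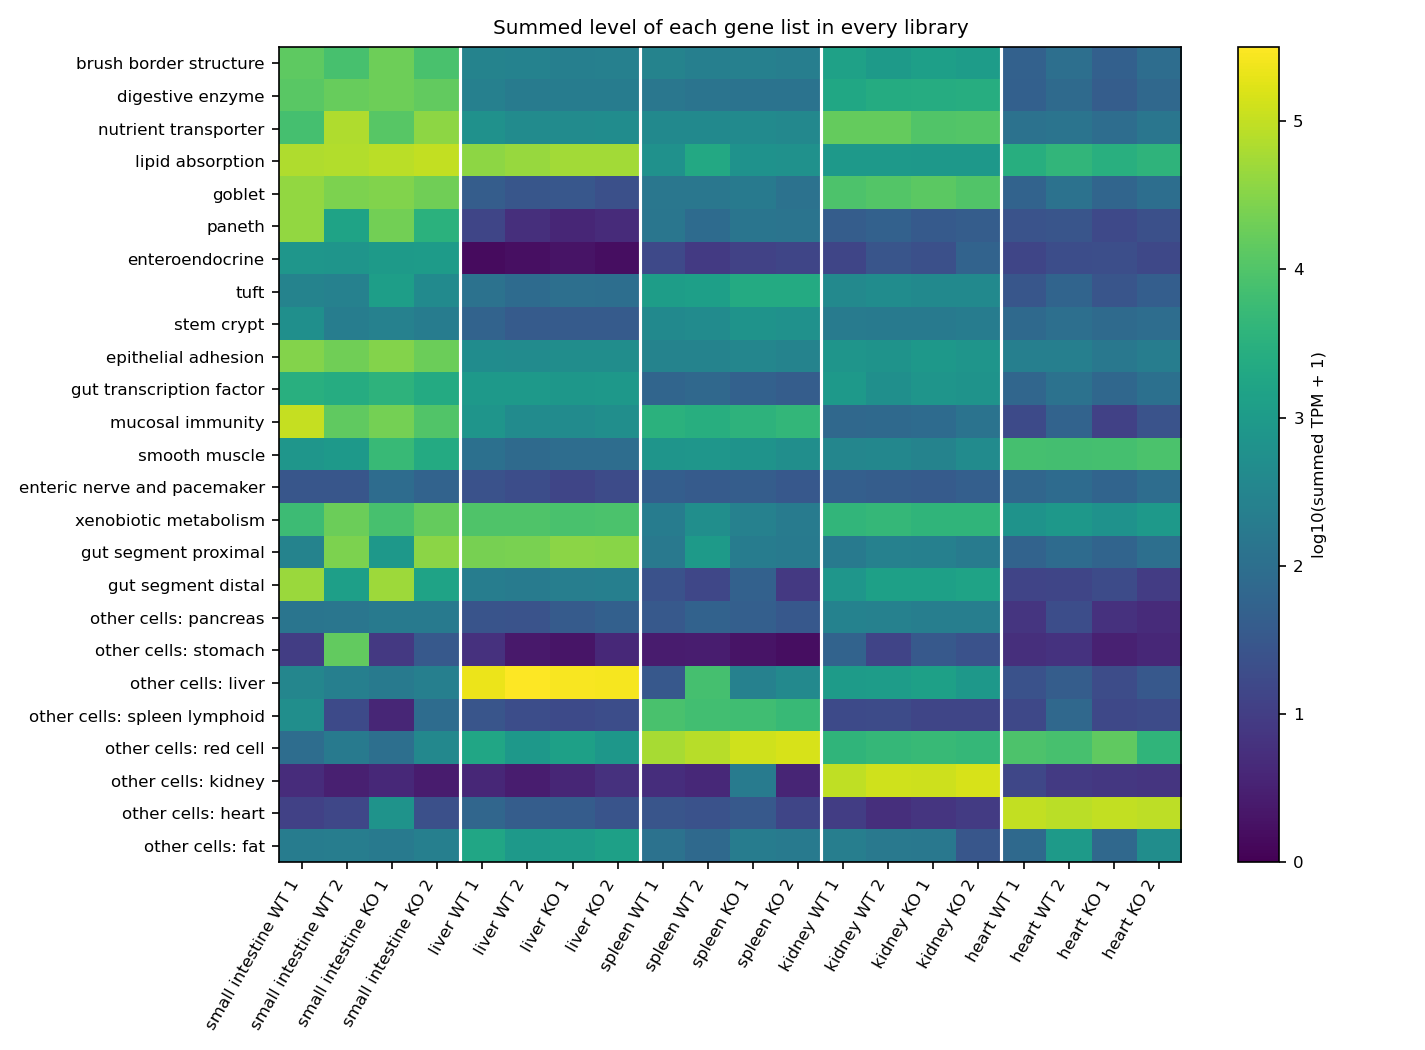
Summed TPM of each gene list (rows) in each of the 20 libraries (columns), as log10(sum + 1) by colour. The lists of the intestinal epithelium are bright in the 4 intestine libraries, the stomach list in intestine WT replicate 2 (14724 TPM), the heart list in KO replicate 1 (660.0 TPM), and the lists of distal and proximal gut in opposite replicates.

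Lists of other organs were used to see what else the samples held. None of 15 liver, 15 lymphoid, 10 red cell, 15 kidney, 15 heart, or 10 fat genes was above every other library in the intestine. Of these, 10 liver, 2 lymphoid, 9 red cell, 2 kidney, 1 heart, and 2 fat genes were called lower and 1 liver, 1 heart, and 2 fat genes higher than the mean of the organs. Over all genes tested, 15.9% were called lower and 24.6% higher. Without the 3 libraries with transcripts of stomach, heart, or liver, 9 lymphoid genes were called higher in place of 0. WT replicate 1, which had the highest lymphoid sum, was then 1 of the 2 intestine libraries left. The liver gene called higher was Cps1, the first enzyme of the urea cycle, which enterocytes also use, at 277, 477, 206, and 418 CPM against 3838 to 8167 CPM in liver. The heart gene was Ckm, muscle creatine kinase, at 1.05, 1.23, 12.8, and 4.74 CPM against 1463 to 2107 CPM in heart. Cps1 and Ckm thus lay far below liver and heart, and their calls are against a mean taken on the log2 scale. Of 22 pancreas genes, 10 could be tested, of which 6 were called higher (5 without the 3 libraries). Of them, 2 were above every other library (4 without the 3 libraries). Of 11 stomach genes, 8 could be tested, of which 6 were called higher (4 without the 3 libraries). None was above every other library (2 without the 3 libraries). Atp4a and Tff1 were not called, and Atp4b, Cblif, and Muc5ac could not be tested. Clps, colipase, was the most abundant of the pancreas genes in all 4 intestine libraries, at 23.9, 27, 32.9, and 33.2 CPM. Adult hemoglobin was low in the intestine: Hbb-bs was at 14.5, 31.5, 16.7, and 52.1 CPM against at least 301 CPM elsewhere.

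The next question was which genes the intestine shared with only one other organ. A gene was counted as shared if the lowest of the 8 libraries of both organs exceeded all 12 libraries of the other 3 and reached 1 CPM, leaving out the 1592 genes above. The spleen shared 566 genes (2.44% of those tested), the liver 327 (1.41%), the kidney 205 (0.885%), and the heart 192 (0.829%). The order of liver and kidney depended on the scaling: library totals alone gave 120 genes for liver and 272 for kidney, and TPM gave 111 and 267. Because genes wholly higher in the intestine are left out by the rule and those wholly higher in the partner are not, the direction within these sets is not a result. The partner lay wholly above the intestine for 192 genes in spleen, 90 in liver, 41 in kidney, and 64 in heart, and the rest overlapped. Counted alike for all pairs of organs, with genes wholly above in either partner left out, the intestine and spleen shared 374 genes (1.61%), the intestine and liver 237 (1.02%), the intestine and kidney 164 (0.708%), and the intestine and heart 128 (0.553%). Kidney and heart shared 255 (1.1%), liver and kidney 238 (1.03%), spleen and heart 182 (0.786%), liver and heart 142 (0.613%), liver and spleen 108 (0.466%), and spleen and kidney 77 (0.332%). Most shared genes had narrow margins over the remaining organs, with at least 4-fold for 45 of those with spleen, 40 with liver, 45 with kidney, and 16 with heart. The number shared with spleen was 964 without the 3 libraries with transcripts of stomach, heart, or liver. Left out singly, intestine KO replicate 1 gave 804, intestine WT replicate 2 gave 627, and spleen WT replicate 2 gave 574. Without the 3 it was 352 for liver, 230 for kidney, and 213 for heart.

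Among the 327 genes shared with the liver, the 4 with the widest margin were Ces2a, Pla2g12b, Apoa4, and Rdh9. The carboxylesterase Ces2a was at 347, 459.8, 239, and 529.8 CPM in the intestine and 244 to 338 CPM in liver, and at most 2.48 CPM elsewhere. Pla2g12b, a protein of lipoprotein secretion, was at 64.3, 96.5, 80.4, and 93.9 CPM in the intestine and 57.6 to 99.1 CPM in liver. These levels overlapped. Apoa4, an apolipoprotein of chylomicrons, was at 27.8 and 48.2 CPM in replicate 1 and 1097 and 2461 CPM in replicate 2, against 25.1 to 72.7 CPM in liver. Rdh9, a retinol dehydrogenase, was at 19.8, 8.13, 21.2, and 4.99 CPM against 4.58 to 25.9 CPM. Of the lists, 7 of 35 gut transcription factors, 5 of 27 genes of xenobiotic metabolism, and 4 of 27 of lipid absorption were shared with the liver, against 1.41% of all genes tested. So were 2 of 19 stem cell and crypt genes, 1 of 24 epithelial adhesion and keratin genes, and 1 of 15 liver genes.

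Of the 205 genes shared with the kidney (0.885% of all tested), the lists held 8 of 35 nutrient transporters, 5 of 22 digestive enzymes, and 2 of 20 brush border genes. The lists also held 2 of 20 goblet cell genes, 2 of 35 gut transcription factors, and 2 of 10 distal gut genes. The enteroendocrine, stem cell and crypt, mucosal immunity, and xenobiotic metabolism lists held 1 each. Of the 205 genes, those with the widest margin were Spink1, Slc13a1, Guca2b, and Lrrc19. Spink1, a trypsin inhibitor, was at 485, 662, 515, and 727 CPM against 658 to 1303 CPM in kidney. Slc13a1, the sodium-sulfate cotransporter, was at 992, 1219, 1695, and 484 CPM against 301 to 917 CPM. Guca2b, uroguanylin, which regulates salt and water secretion, was at 245 and 405 CPM in replicate 1 and 1098 and 1682 CPM in replicate 2, against 166 to 814 CPM in kidney. Lrrc19, a membrane receptor, was at 239, 259, 303, and 168 CPM against 254 to 484 CPM.

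Genes shared with the spleen included 10 of the 31 on the list of mucosal immunity, against 2.44% of all genes tested. Slpi, an inhibitor of leukocyte proteases, was at 25.4, 26.3, 27.4, and 45.9 CPM against 74.8 to 79.9 CPM in spleen. Rgs13, a regulator of G protein signalling in B cells and tuft cells, was at 14.9, 8.96, 120.1, and 19.9 CPM against 3.45 to 12.1 CPM, with KO replicate 1 far above the rest. Jakmip1 was at 4.47, 4.01, 5.22, and 5.90 CPM against 4.23 to 6.80 CPM, and the zinc finger gene St18 at 1.39, 1.07, 7.18, and 1.81 CPM against 1.42 to 1.86 CPM.

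Of the 192 genes shared with the heart, 64 lay wholly above the intestine in the heart and 128 overlapped. Ldb3, a protein of the muscle Z-disc, was at 126, 121, 205, and 124 CPM against 542 to 694 CPM in heart. Rbp7, a retinol binding protein of fat and vessels, was at 11.7, 6.94, 18.4, and 9.73 CPM against 27.7 to 49.2 CPM. Sh3rf2 was at 9.35, 8.92, 26.6, and 7.75 CPM against 19 to 38.0 CPM. KO replicate 1, the library with heart muscle transcripts, was the highest of the intestine for each of these 3, and their part in these values was not tested. 2210407C18Rik was at 60.7 and 9.10 CPM in replicate 1 and 2385 and 1181 CPM in replicate 2, against 22.2 to 31.6 CPM in heart.

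**Figure D4:**
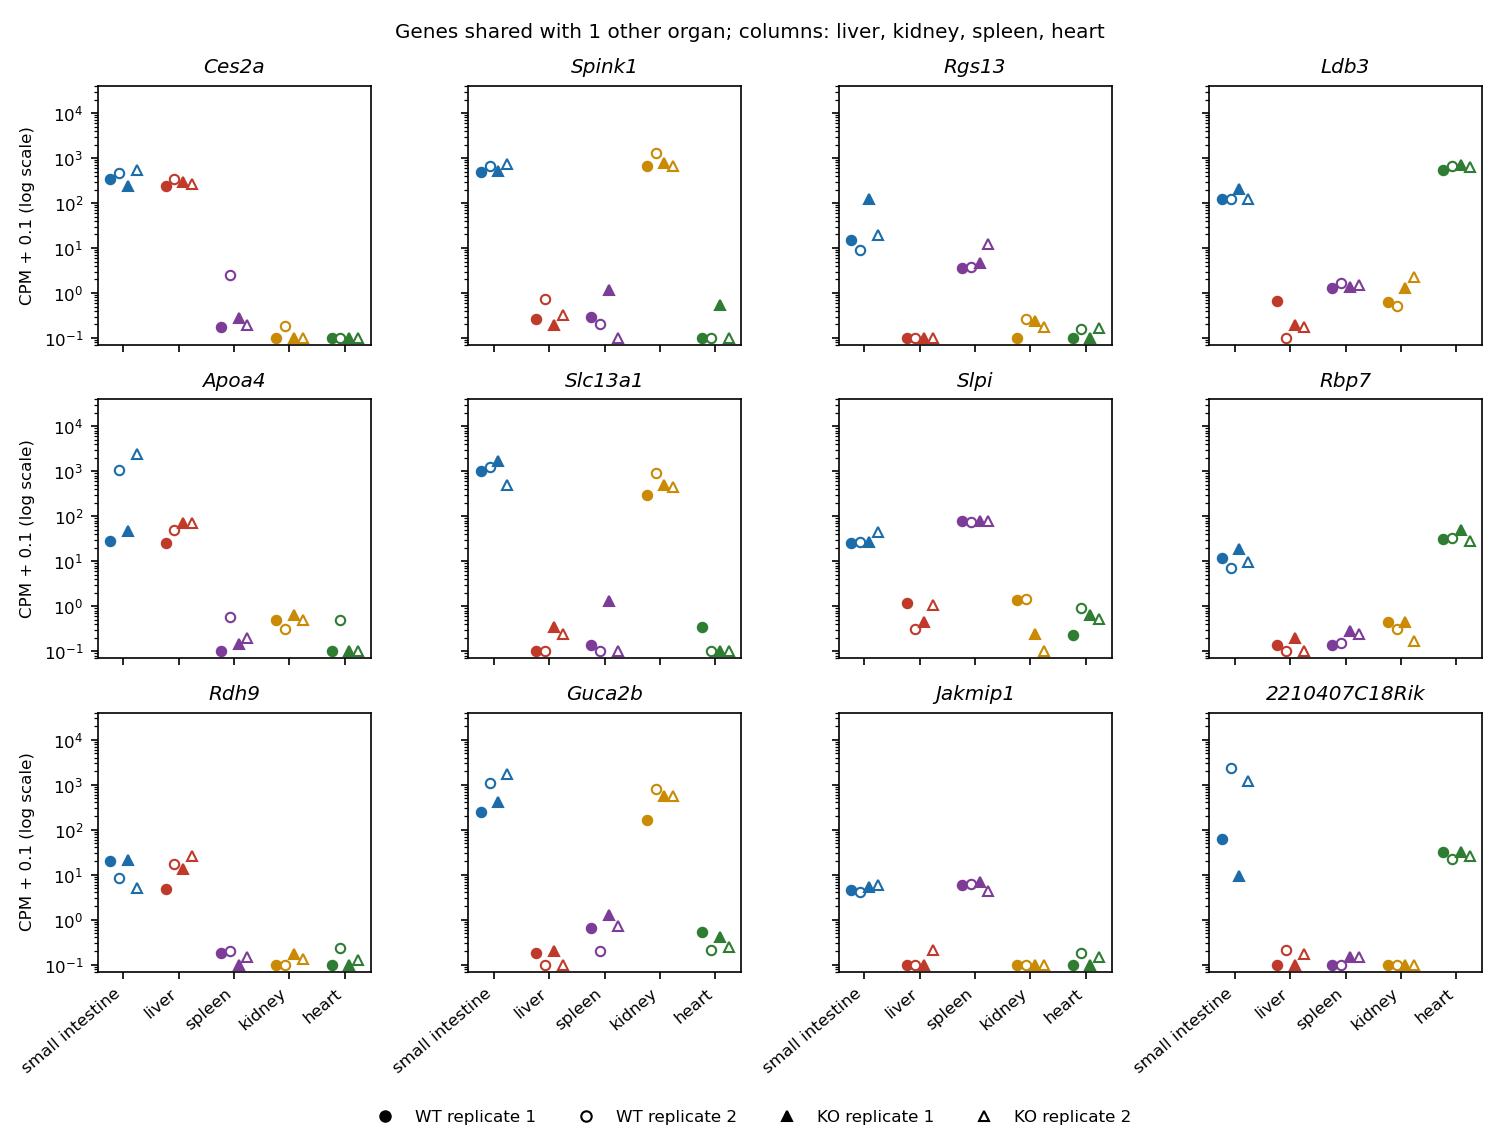
CPM + 0.1 on a log axis (y) in each of the 20 libraries by organ (x), for 3 genes shared with liver, kidney, spleen, and heart, in columns from left to right; circles are WT, triangles KO, filled symbols replicate 1, and open symbols replicate 2. Ces2a overlaps between intestine (239 to 529.8 CPM) and liver (244 to 338 CPM), and Ldb3 lies at 121 to 205 CPM in intestine and 542 to 694 CPM in heart.

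A gene was counted below every other library if its highest intestine library lay under all 16 others and these all reached 1 CPM. This held for 796 genes, or 3.44% of those tested. Of the 796, 16 were at least 4-fold below the lowest other library and 109 at least 2-fold. Because the rule asks for 1 CPM in all 16 other libraries, its number is not to be set against that of the genes above. The same rule gave 590 genes (2.55%) for liver, 1318 (5.69%) for spleen, 214 (0.924%) for kidney, and 710 (3.07%) for heart. Without the 3 libraries with transcripts of stomach, heart, or liver, 970 genes of the intestine met the rule. Of the 796 genes, 96.2% were protein coding, a share that is likewise not matched for level with the genes tested. Agtr1a, the angiotensin II receptor of vessels and kidney, was at 0.174, 0.793, 0.797, and 0.866 CPM against 10.8 to 100.02 CPM in the other 16 libraries (log2 difference from the mean of the organs −5.65). Alas2, the heme synthesis enzyme of red cell precursors, was at 0.610, 0.952, 0.761, and 0.907 CPM against 9.73 to 395 CPM (log2 difference −5.78). Fn3k, which repairs glycated proteins, was at 0.145, 0.0793, 0.399, and 0.825 CPM against 7.99 to 35.0 CPM. Btnl9, a butyrophilin of endothelium, was at 0.116, 0.0397, 0.689, and 0.412 CPM against 6.35 to 69.0 CPM, and Pcolce2, an enhancer of collagen processing, at or below 0.254 CPM against 3.28 to 42.6 CPM.

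Within the intestine, libraries of the same replicate number were the most alike. The largest correlations over genes were between WT and KO replicate 2 (r = 0.984) and WT and KO replicate 1 (r = 0.963), and the other 4 pairs lay at 0.934 to 0.938. Of 10 genes listed for the distal gut, the sum was 47093 and 48752 TPM in replicate 1 and 1274 and 1543 TPM in replicate 2 of WT and KO, with Fabp6 the most abundant in replicate 1. Of 11 genes listed for the proximal gut, the sum was 283.4 and 874.6 TPM in replicate 1 and 25605 and 34763 TPM in replicate 2, with Fabp1 the most abundant in both replicate 2 libraries. Naaladl1, a peptidase of the distal list, was at 1657 and 2581 CPM in replicate 1 and 60.8 and 107 CPM in replicate 2. Ada, adenosine deaminase, and Adh1, alcohol dehydrogenase, of the proximal list ran the other way, at 114 and 64.2 against 1057 and 1719 CPM and at 14.1 and 22.9 against 611 and 624 CPM. The stomach transcripts lay in WT replicate 2, one of the libraries with proximal genes. The segment that was dissected is not in the labels and its part in these values was not tested.

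For the genes above every other library, the spread between the intestine libraries is a description only. The rule used the same 4 libraries and limits how low any of them can fall. The ratio of the highest to the lowest intestine library had a median of 1.85 over the 1592 genes and of 1.82 over the 12725 genes tested that reached 1 CPM in all 4, and it exceeded 4-fold for 238 (14.9%) of the former and 12.8% of the latter. In both genotypes, replicate 2 was more than 4-fold above replicate 1 for 38 of the 1592 (2.39%) and below it for 35 (2.20%). Over all genes tested, which include genes under 1 CPM, these shares were 2.75% and 3.45%. Among the 1592 genes, 2 with wide differences in both genotypes, chosen after the values were seen, were Reg1, a secreted lectin, with log2 ratios of replicate 2 to replicate 1 of 11.08 in WT and 10.68 in KO, and Duox2, an oxidase of the epithelial surface, with −6.09 and −5.98. With only the replicate 2 libraries of the intestine, 2474 genes were above every other library.

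**Figure D5:**
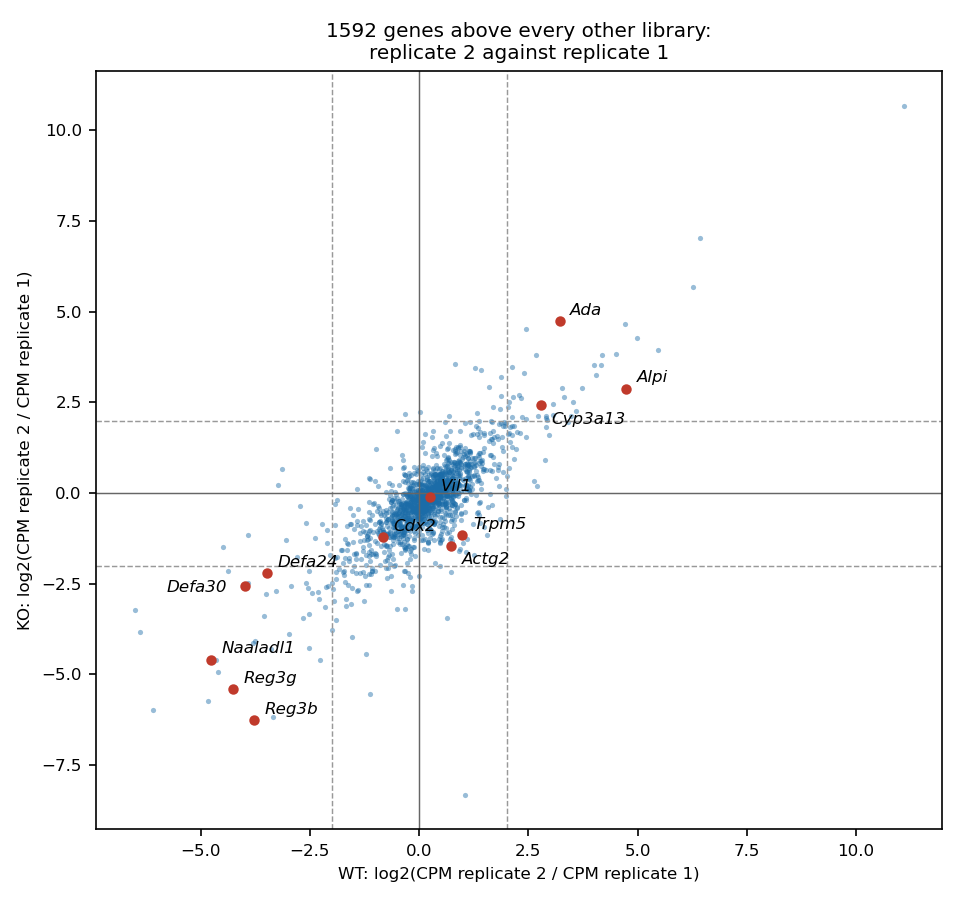
Log2 ratio of replicate 2 to replicate 1 in KO (y axis) against that in WT (x axis) for the 1592 genes above every other library; each point is a gene, dashed lines mark 4-fold, and named genes are in red. Vil1 and Cdx2 lie near the centre, Naaladl1 and the defensins at lower left, and Ada and Alpi at upper right.

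Last, the genotypes were compared within the intestine. In the fit of all 20 libraries, no gene was called higher and none lower in KO than in WT intestine (0% of 23159 each, edgeR's quasi-likelihood test, smallest adjusted p = 0.109). The study, which used DESeq2 within each tissue at the same thresholds, reported both higher and lower genes in KO small intestine. With an unadjusted p below 0.05, edgeR gave 995 genes on the higher and 628 on the lower side. DESeq2 called 282 higher and 86 lower at the thresholds of a call. The simulated counts on which DESeq2 made more false calls than edgeR did not score this comparison, so they do not rank these numbers. Without the 3 libraries with transcripts of stomach, heart, or liver, edgeR called 640 higher and 380 lower. That setting leaves WT replicate 1 and KO replicate 2 in the intestine, which hold distal and proximal genes respectively (distal list 47093 and 1543 TPM), so genotype and replicate number cannot be told apart in it. With the replicate number as a block within the intestine only, chosen after seeing that same-numbered intestine libraries were alike, edgeR called 60 higher and 24 lower. Of the 1592 genes above every other library, both KO libraries were above both WT libraries for 178 (11.2%) and below them for 130 (8.17%), against 13.9% and 10.2% of all genes tested. Of the 192 genes shared with the heart, both KO libraries were higher for 49 (25.5%), and heart muscle transcripts were highest in KO replicate 1 (660.0 TPM, against 21.2 TPM in KO replicate 2). The smooth muscle list was higher in both KO libraries (5147 and 2336 TPM) than in both WT libraries (778.1 and 909.3 TPM). The part of either in that share was not tested. The genotype effect in the intestine was then set against its mean in the other 4 organs. One gene passed (0.00432%) and is named for that, Frmd5, a FERM domain protein that heart libraries held at 179 to 307 CPM. It was at 0.116 and 0.0793 CPM in WT and 1.23 and 0.825 CPM in KO intestine (log2 difference of effects 5.27, SE 0.66, edgeR adjusted p = 0.0450), which are 4, 2, 34, and 20 counts. Both KO libraries of the liver had no counts of it, so the size of this difference rests on the prior count of the fit and is no bound. The call was lost with the replicate number as a block (edgeR adjusted p = 0.107), with only replicate 2 of the intestine (edgeR adjusted p = 0.245), and when 7 of the 20 libraries were left out in turn, among them intestine WT replicate 1 (edgeR adjusted p = 0.296). The size changed little: the log2 difference was 5.27 with the block, 5.26 with only replicate 2, and 5.22 to 5.59 in the 7 settings. Frmd5 lay at 0.0498% and 0.0340% of its mean heart level in WT and at 0.528% and 0.353% in KO. The heart list had medians of 0.684% in KO replicate 1 and 0.0162% in KO replicate 2, and without KO replicate 1 the log2 difference was 4.95 (edgeR adjusted p = 0.0889). The sum of the smooth muscle list was also higher in both KO libraries than in both WT libraries, and its part in this value was not tested. No gene passed in the other direction (0%). With an unadjusted p below 0.05, 799 genes had a more positive and 402 a more negative effect in the intestine. At the adjusted p and fold change of a call, DESeq2 called 203 and 39.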

How the data were processed

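RNA-seq covered 5 organs with 20 libraries, 2 per organ in each genotype (WT and Nsun6-KO), which were grouped by the organ, genotype, and replicate number of the labels. The submitters' processing notes name cutadapt, HISAT2 2.1.0, featureCounts 2.0.1, and the build mm10. The authors trimmed and mapped read pairs, counted exons of the Ensembl annotation of GRCm38 per gene, and deposited raw counts for 55401 genes without normalization. The deposited table also gives gene length, the bases covered by exons, which is no measurement and served for TPM. The methods print GRCh38 as the genome. They state reverse-stranded counting of proper pairs, whereas the command in the file holds no such option. Between 54.9% and 59.8% of the values from 10 to 50 counts of a library were even, and mates may have been counted singly, so counts are not independent molecules. Without strand, reads of overlapping genes cannot be told apart: 17 of the 118 genes named by rule share exon bases with another gene, namely Vil1, Krt8, Elf3, Gata5, Olfm4, Trpm5, Apoa4, Prom1, Rdh9, Slpi, Jakmip1, Adh1, Alas2, Lipe, Slc34a1, Myl2, and Tnni3.

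Total counts ranged from 15897446 to 44508197 with a median of 28513950, so the spread between libraries and not the counting error limits most values. From the deposited counts, edgeR 4.0.16 (limma 3.58.1, R 4.3.3) fitted 10 groups together after TMM normalization and filterByExpr, by its robust quasi-likelihood test. Calls required more than a 2-fold change and a p below 0.1 after Benjamini-Hochberg adjustment, the thresholds of the study, which used DESeq2. DESeq2 1.42.0 was an alternative. The fits were tested on simulated counts, with calls by adjusted p alone and without the comparison of KO with WT in the intestine. Against the mean of the organs, DESeq2 recovered more of the changes put in and made many more false calls than edgeR. TPM was computed from the counts and gene lengths. Library order used CPM with a minimum of 1 CPM, and margins were ranked and counted with a prior of 0.5 counts, whereas folds printed for single genes have none. A margin is the lowest intestine library over the highest other library. Where an organ had no counts of a gene, it was set to 3 counts per library for list medians, and no fold is given for such genes. Promoters are RefSeq windows on GRCm38.p6. Python 3.11.15 and matplotlib 3.10.9 were used for promoters and figures.

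The members, the gene lists, and the tests were chosen with earlier results of these data known. The genes named are the markers, among genes above every other library and called higher the 10 with the highest TPM in the lowest intestine library and the 10 with the largest margin at 10 CPM or more, the 4 shared with each organ and the 5 below with the largest margin, the 3 members of each of 26 lists with the highest mean intestine TPM and those the counts of a list require, and the gut transcription factors above every other library. Rock2, Trp53i13, Frmd5, Reg1, and Duox2 fall outside this rule. One gene that the rule names is not reported here. One listed gene (Gm14851) was not in the table used here. The alternatives were other size factors, library totals only, other filters, a replicate block, an adjusted p under 0.05, one genotype or one replicate number, TPM, other margins, and each library left out in turn. Leaving out 3 libraries together and a block within the intestine only were chosen after seeing the data. The bisulfite data of the study were not analysed here.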

Additional observations from a re-analysis of the deposited data

Results flagged for a closer look

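A total of 144 values of the 4 intestine libraries, of named genes (CPM) and gene lists (summed TPM), were searched for a library far from the other 3, and chance flags about 1 in 20 groups of 4. Of these, 24 stood out. That rate holds for independent, normally distributed values, whereas the list sums contain genes that were also searched singly. List genes were picked by mean intestine TPM, which a single high library raises. The 24 are therefore not to be set against the rate.

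Intestine WT replicate 2 was far above the other intestine libraries in 3 stomach genes, Tff2 (2620.0 CPM), Gkn3 (1829 CPM), and Muc6 (504 CPM), and in the stomach list (14724 TPM). Intestine KO replicate 1 was far above in the heart genes Myl2 (169.9 CPM), Actc1 (63.5 CPM), and Tnni3 (62.7 CPM) and in the heart list (660.0 TPM), in Ldb3 (205 CPM) and Sh3rf2 (26.6 CPM), which are shared with the heart, in Rgs13 (120.1 CPM) and St18 (7.18 CPM), which are shared with the spleen, and in the tuft cell list (1200 TPM). Whether the transcripts of heart muscle bear on the genes shared with the heart was not tested.

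Intestine WT replicate 1 was far above the others in the antimicrobial lectin Reg3g (14233 CPM), in the list of mucosal immunity (103124 TPM), in Olfm4 (258 CPM) and the stem cell and crypt list (543.7 TPM), in Ighd (81.1 CPM) and the lymphoid list (518.5 TPM), and in Alb (54.8 CPM), and far below them in Sis (2182 CPM) and in the sum of the markers Vil1, Cdx2, and Fabp2 (16905 TPM). Intestine KO replicate 2 was below the others in Lgals4 (2921 CPM) and above them in Slpi (45.9 CPM).

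The effect of the genotype on Frmd5 differed between the intestine and the mean of the other organs, with a log2 difference of 5.27, tested as an interaction in the fit of all libraries. The call was lost with the replicate block and when 7 of the 20 libraries were left out in turn, while the log2 difference stayed at 5.22 to 5.59 in those 7.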

How the results depend on the processing

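With at least 10 counts in every library, which leaves fewer genes to test, calls fell to 2065 higher and 2094 lower against the mean of the organs, 2345 and 2205 against liver, 2668 and 2547 against spleen, 2222 and 2360 against kidney, and 2805 and 2983 against heart. Library totals alone gave 2941 lower than liver, and WT libraries alone 3686 lower than spleen. Of the genes above every other library, 725 kept a margin of at least 2-fold, and 2474 genes met the rule with only replicate 2 of the intestine. Genes below every other library numbered 109 with a margin of at least 2-fold, 429 at a minimum of 10 CPM, 1623 in KO alone, 1385 in WT alone, and 1425 with only replicate 2 of the intestine. Genes shared with liver numbered 80 with a margin of at least 2-fold, 515 in KO alone, 120 by library totals, and 111 by TPM. Those shared with spleen numbered 139 with that margin, 876 in KO alone, 1020 in WT alone, 334 at a minimum of 10 CPM, and 964 without the 3 libraries with transcripts of stomach, heart, or liver. Those shared with kidney numbered 83 with that margin, 344 in KO alone, and 134 at 10 CPM, and those with heart 43 with that margin, 398 in KO alone, 115 by library totals, 103 by TPM, and 123 at 10 CPM. The cause of these moves was not tested.

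The comparisons of genotype depended on the processing. KO against WT in the intestine gave 282 higher and 86 lower by DESeq2, 33 and 6 with at least 10 counts, 442 and 397 with no filter, 640 and 380 without the 3 libraries, 143 and 394 with only replicate 1, and 2 and 1 with only replicate 2 of the intestine. The difference of its effect from that in other organs gave 203 and 39 by DESeq2, 4 higher with at least 10 counts, 293 and 158 with no filter, 392 and 187 without the 3 libraries, 116 and 280 with only replicate 1, and 3 and 1 with only replicate 2. Settings that leave 1 library in a group assume that it varies like the other groups.

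Leaving out each library in turn gave 1596 to 1848 genes above every other library, 800 to 1065 below, 326 to 375 shared with liver, 562 to 804 with spleen, 204 to 234 with kidney, and 188 to 240 with heart. Calls ranged from 5356 to 6254 higher and 3293 to 3976 lower against the mean of the organs, 5812 to 6627 and 4093 to 4639 against liver, 5029 to 5853 and 5439 to 6312 against spleen, 4958 to 5912 and 4882 to 5477 against kidney, and 6041 to 7048 and 5177 to 6264 against heart. KO against WT ranged from 0 to 202 higher and 0 to 268 lower, and the difference of effects from 0 to 120 and 0 to 136, with the highest values without intestine KO replicate 2.

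With the replicate number as a block, 5568 genes were higher and 3716 lower than the mean of the organs, none differed by genotype, and Frmd5 lost its call (0 genes). The block changed no other count of calls by over 1.5 times. The numbers do not pair the samples by the labels: over 45 pairs of groups, the correlation of differences between replicates ran from −0.452 to 0.635 (median 0.0478, 14 pairs over 0.1). The highest was that of WT and KO intestine. With a block within the intestine only, chosen after seeing the data, KO against WT gave 60 higher and 24 lower, and the difference of effects from other organs 29 and 4, with Frmd5 among them (edgeR adjusted p = 0.0549).

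Among the named genes, 11 turned direction against the mean of the organs. On the log2 scale, Adh1 was at −2.01 with only replicate 1 of the intestine, and at −0.073 (without WT replicate 2) to 2.59 with single libraries left out. Cd79a was at −3.75 and −0.29 with only replicate 1 or 2 and at −4.21 (without KO replicate 2) to 1.45, Cd79b at −0.44 with only replicate 1 and at −0.86 (without KO replicate 2) to 1.42, and Ighd at −1.74 and −1.34 with only replicate 1 or 2 and at −2.23 (without KO replicate 2) to 1.46. These 3 genes were also negative without WT replicate 1. Cfd was at −1.54 without the 3 libraries, −4.46 with only replicate 2, and −1.93 (without KO replicate 1) to 2.24, and Tat at −0.44, −8.39, and −4.80 (without WT replicate 1) to 2.66. Gkn3 was at −0.35 without the 3 libraries, −2.52 with only replicate 1, and −0.76 (without WT replicate 2) to 8.58, and Muc6 at −0.061 in KO alone, −0.26 with only replicate 1, and −0.088 (without WT replicate 2) to 4.31. In KO alone Actc1 was at 3.18, Myl2 at 2.94, and Tnni3 at 1.35, and Myl2 was at 0.033 with only replicate 1 and at −2.99 (without KO replicate 1) to 0.37 with single libraries left out. The limits are 2 libraries per group, a segment of gut that the labels do not give, transcripts of other organs in 4 libraries, and genes counted together where exons overlap.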
